A study of Mus musculus with 16 samples.

Results

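The Hox genes encode the homeodomain transcription factors of the Hoxa, Hoxb, Hoxc and Hoxd clusters, and they were followed here through a stepwise induction of mouse induced pluripotent stem (iPS) cells. Every gene of the platform annotation whose symbol is Hoxa, Hoxb, Hoxc or Hoxd with a number was taken, which gave 38 of 16590 genes on the array and 50 of 25697 probes. The clusters contributed 10 Hoxa, 10 Hoxb, 9 Hoxc and 9 Hoxd genes. The noncoding RNAs of the clusters were not analysed here.

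Total RNA was measured on Illumina BeadChip arrays, 1 array per culture dish and 4 dishes in each of 4 groups. Mouse embryonic fibroblasts (MEF) of strain CD1, taken here as the first stage, grew alone with 10% serum. OKM cells of strain CD1, whose titles read 3F, are the intermediate stage, and iPS cells of strain CD1, whose titles add SOX2, are the end point of the induction. Embryonic stem (ES) cells of strain 129, whose titles read R26, are the pluripotent comparison. OKM, iPS and ES cells shared 15% serum, 10 ng/ml of leukemia inhibitory factor and a layer of primary MEF feeders treated with mitomycin C. How the factors entered the cells is not given in the labels, nor whether the OKM or iPS dishes came from 1 clone. The dishes are called independent without further detail, so the p-values measure the spread between dishes. The feeders are themselves fibroblasts, and Hox RNA from feeders cannot be told apart from Hox RNA of the cells grown on them. In bulk samples of this kind, fewer cells that express a gene and less RNA per cell cannot be told apart either. Strain and line differ between ES cells and the other 3 groups and cannot be told apart from the cell type in any comparison with ES cells.

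Hox proteins give cells their identity along the body axis. Genes near 1 end of a cluster, with low paralog numbers, are used in the hindbrain and neck, and genes near the other end, with high numbers, in the lumbar and tail region and the distal limb. Paralogs at the same position in different clusters arose by duplication and partly overlap in function. Fibroblasts keep much of the Hox pattern of the body region they came from, whereas in undifferentiated ES cells the clusters are known to be held down by Polycomb proteins.

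The promoters of 4 genes are shown because their levels in iPS cells differed most from those in ES cells among the called Hox genes with a RefSeq promoter. Each stretch is the 250 bases before the annotated start in the mouse assembly GRCm38.p6, 5′ to 3′ on the strand of the gene, and capitals mark CCAAT or its reverse complement ATTGG.

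Hoxd9, chr2:74697513-74697762, plus strand: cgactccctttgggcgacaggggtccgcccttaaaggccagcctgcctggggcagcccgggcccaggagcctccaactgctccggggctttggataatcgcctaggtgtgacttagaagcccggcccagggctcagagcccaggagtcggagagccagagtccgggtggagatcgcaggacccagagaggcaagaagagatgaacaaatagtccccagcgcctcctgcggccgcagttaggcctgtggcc

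Hoxd8, chr2:74704365-74704614, plus strand: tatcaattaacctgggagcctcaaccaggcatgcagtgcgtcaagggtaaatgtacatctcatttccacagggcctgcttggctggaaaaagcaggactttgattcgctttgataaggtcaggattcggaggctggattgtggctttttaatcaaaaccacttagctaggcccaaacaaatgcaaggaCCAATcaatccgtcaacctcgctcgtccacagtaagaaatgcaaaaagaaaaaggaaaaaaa

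Hoxa5, chr6:52204588-52204837, minus strand: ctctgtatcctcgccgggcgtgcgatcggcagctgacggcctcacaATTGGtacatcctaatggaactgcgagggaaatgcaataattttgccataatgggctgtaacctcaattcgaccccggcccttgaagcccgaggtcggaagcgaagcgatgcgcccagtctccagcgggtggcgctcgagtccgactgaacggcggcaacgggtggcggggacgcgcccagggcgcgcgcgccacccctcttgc

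Hoxa7, chr6:52218574-52218823, minus strand: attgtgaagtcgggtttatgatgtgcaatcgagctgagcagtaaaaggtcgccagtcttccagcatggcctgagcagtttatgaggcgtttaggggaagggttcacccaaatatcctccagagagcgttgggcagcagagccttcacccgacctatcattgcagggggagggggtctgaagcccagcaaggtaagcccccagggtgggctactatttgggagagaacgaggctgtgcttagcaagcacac

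The CCAAT of Hoxd8 starts 62 bases before the annotated start and the ATTGG of Hoxa5 204 bases before it. RefSeq promoter windows of 300 bases, with 50 bases after the start included, were found for 22 of the 38 genes, as 24 windows. CCAAT on either strand was present in 62.5% of these windows and in 37.4% of all 32851 windows of the table. TATAAA on either strand was present in 16.7% of the Hox windows and 13.6% of all windows. TGATNNAT, the core of sites bound by Pbx with Hox proteins, was present in 16.7% and 8.85%. No Hox window held the octamer ATGCAAAT (1.74% of all windows) or a direct repeat of AGGTCA spaced by 5 bases (0.00913%), a motif of retinoic acid receptors. The motifs were counted separately, whether or not they overlapped one another. The median number of CG pairs was 14.5 in the Hox windows and 7 in all windows, with 20 for Hoxd9, 6 for Hoxd8, 29 for Hoxa5 and 9 for Hoxa7. The letters say nothing of whether a factor was bound.

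Hox RNA was readily measured in 3 of the 4 groups. Levels are given as log2 normalized intensity, and a gene was counted as detected on an array when the detection p-value of a probe was under 0.01. Of the 38 genes, 22 to 24 were detected per MEF array, 18 to 22 per OKM array, 19 to 21 per iPS array and 4 to 9 per ES array, while the share of all probes detected was 44.9% to 49.1% on every array. Genes detected on all 4 arrays of a group numbered 21 in MEF, 17 in OKM, 18 in iPS and 3 in ES. The median over the 25 tested Hox genes was 7.30 ± 0.05 in MEF, 7.29 ± 0.11 in OKM, 6.40 ± 0.14 in iPS and 5.17 ± 0.24 in ES (SD, n = 4 each). The median of the OKM arrays thus overlapped that of MEF, and every iPS array lay below every OKM array and above every ES array.

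The detected genes covered all 4 clusters. A gene was tested when a probe was detected on at least 4 of the 16 arrays, whatever their group, which left 7 Hoxa, 5 Hoxb, 5 Hoxc and 8 Hoxd genes. Hoxa10 and Hoxd12 passed through the 4 MEF arrays alone, so they had to be higher in MEF. No array detected Hoxa3, Hoxa6, Hoxa11, Hoxb1, Hoxb8, Hoxb13, Hoxc5, Hoxc8, Hoxc11, Hoxc12 or Hoxd1. Hoxb3 was detected on 1 MEF array and Hoxb9 on 3 MEF arrays, and neither was tested. Some of the genes without a signal lie among detected neighbours, such as Hoxb8 beside Hoxb7 and Hoxc8 between Hoxc6 and Hoxc9 in the RefSeq gene order. An undetected probe places no limit on the gene beyond that probe.

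**Figure D1:**
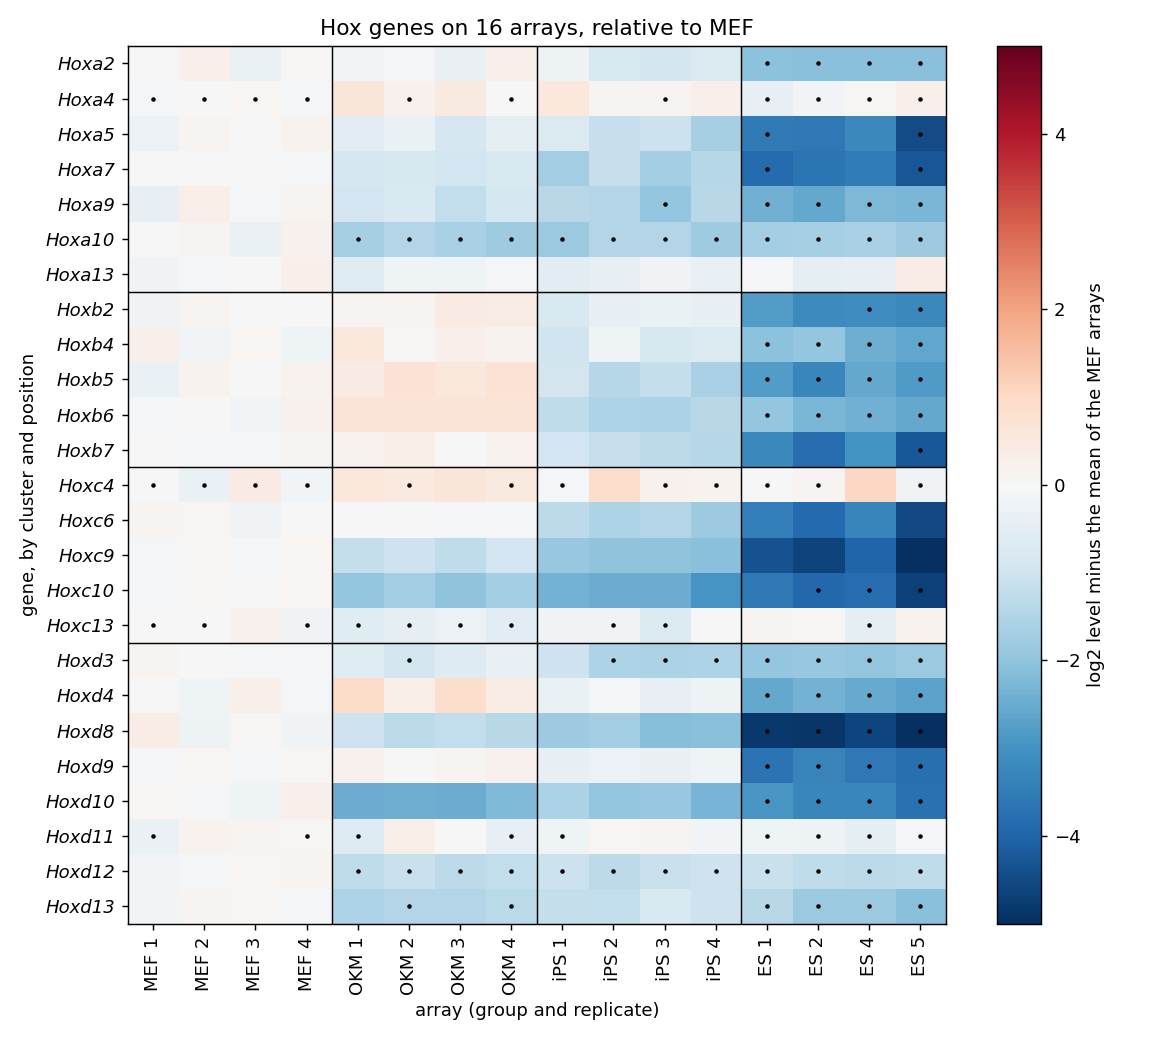
Log2 normalized intensity of the 25 tested Hox genes on each array, as the difference from the gene's mean over the 4 MEF arrays, with genes ordered by cluster and paralog position. Dots mark arrays on which the shown probe was not detected. The ES columns are the bluest, while the OKM columns are pale for Hoxb genes and blue for Hoxa10, Hoxc10 and Hoxd10.

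The first step, OKM against MEF, gave lower levels of several Hox genes, most of them at positions 9 to 13, the 5′ end of the clusters. Of the 25 tested genes, 7 fell and 0 rose at an adjusted p under 0.05 and a change of at least 2-fold, and over all 9455 genes tested 15.8% fell and 16.1% rose. The 7 were Hoxa10, Hoxc9, Hoxc10, Hoxd8, Hoxd10, Hoxd12 and Hoxd13. The fall of Hoxa10 and Hoxd12 was fixed by the detection filter, and without this pair 5 of 23 fell (21.7%), not far above the share over all genes. At an unadjusted p under 0.05 alone, without the size limit, limma put 6 Hox genes higher. The median change was -0.29 on the log2 scale over the 25 genes and -0.19 without the pair, against 0.02 for all genes tested.

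Hoxd10, which patterns the lumbar spinal cord and the limb, had log2 levels of 5.93, 5.99, 5.93 and 6.20 in OKM, against 8.48, 8.34, 8.18 and 8.65 in MEF. Every OKM array lay more than 1 log2 unit below every MEF array, and the change was -2.40 (SE 0.17, adjusted p = 5.19e-10). Hoxc10, its paralog in the Hoxc cluster, had levels of 7.41, 7.67, 7.33 and 7.66 in OKM, against 9.25, 9.42, 9.32 and 9.44 in MEF. It fell by 1.84 (SE 0.18, adjusted p = 6.46e-08). Hoxa10, known for its role in the uterus and the lumbar skeleton, had levels of 4.60, 4.80, 4.66 and 4.501 in OKM, against 6.24, 6.41, 5.94 and 6.46 in MEF. No OKM array detected it, so the change of -1.62 (SE 0.12, adjusted p = 1.43e-09) is best read as at least 1.52-fold lower. For such bounds the level of a group without detection is set, on each array, to that of the dimmest detected probe or the gene's own level, whichever is higher.

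The other called genes were the limb genes Hoxd12 and Hoxd13 and the thoracic genes Hoxc9 and Hoxd8. Hoxd13, which shapes the digits, had levels of 5.57, 5.64, 5.63 and 5.73 in OKM, against 6.96, 7.23, 7.15 and 7.03 in MEF. Its change was -1.45 (SE 0.13, adjusted p = 1.58e-08), and 2 of the 4 OKM arrays detected it, so its OKM level lay near background. Hoxd12 was undetected in OKM and at least 1.15-fold lower than in MEF, with means of 4.63 ± 0.09 in OKM and 5.86 ± 0.14 in MEF (SD, n = 4 each; change -1.22, adjusted p = 1.83e-09). Hoxd8 had levels of 8.68, 8.38, 8.49 and 8.32 in OKM, against 10.10, 9.46, 9.76 and 9.54 in MEF (change -1.25, SE 0.15, adjusted p = 1.05e-06). Groups did not overlap for any of these genes, and Hoxc9 likewise had 9.56, 9.72, 9.47 and 9.79 in OKM, against 10.65, 10.82, 10.70 and 10.87 in MEF. Its change was -1.12 (SE 0.15, adjusted p = 3.24e-06). Without background correction the changes of Hoxa10, Hoxd12 and Hoxd13 were -0.68, -0.50 and -0.72, and with an offset of 50 those of Hoxa10 and Hoxd12 were -0.91 and -0.65, all short of 2-fold.

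Leaving out Hoxa10 and Hoxd12, 3 of 7 tested Hoxd genes, 2 of 5 Hoxc genes, 0 of 6 Hoxa genes and 0 of 5 Hoxb genes fell. The tested Hoxb genes all lie at positions 2 to 7, so cluster and position cannot be told apart for them. Hoxb9, which was not tested, had means of 6.04 in MEF and 4.69 in OKM. It was detected on 3 MEF arrays and 0 OKM arrays. By paralog position and again without Hoxa10 and Hoxd12, 4 of 9 tested genes at positions 9 to 13 fell, with a median change of -0.96. Over all genes tested 15.8% fell, and each of these classes holds few genes. At positions 5 to 8 the count was 1 of 7 (median -0.06) and at positions 1 to 4 it was 0 of 7 (median 0.28). Genes at the same position did not all move alike. At position 10 Hoxc10 and Hoxd10 fell, as did Hoxa10 of the pair, whereas at position 9 the change was -1.12 for Hoxc9, -0.96 for Hoxa9 (SE 0.15, 1.94-fold lower, below the size limit) and 0.15 for Hoxd9 (adjusted p = 0.187). At position 13 the change was -1.45 for Hoxd13, -0.29 for Hoxa13 (adjusted p = 0.121) and -0.48 for Hoxc13, which was detected on 0 of 4 OKM and 1 of 4 MEF arrays.

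The 5 tested Hoxb genes and several genes with low paralog numbers had OKM levels at or slightly above those of MEF, with none past the 2-fold limit. Hoxd3 went the other way (change -0.63, SE 0.13). Hoxb6 had levels of 7.998, 8.02, 8.03 and 8.07 in OKM, against 7.32, 7.35, 7.24 and 7.58 in MEF. The groups did not overlap, at a change of 0.66 (SE 0.12, adjusted p = 9.42e-05). The change was 0.61 for Hoxb5 (SE 0.17, adjusted p = 0.00349) and 0.62 for Hoxd4 (SE 0.14, adjusted p = 0.000672). Hoxb2 changed by 0.28, Hoxb4 by 0.25, Hoxb7 by 0.15 and Hoxa2 by -0.07, the last 3 with overlapping groups. The 4 paralogs at position 4 all had positive values, from 0.25 for Hoxb4 to 0.62 for Hoxd4, but Hoxa4 and Hoxc4 were detected on 2 OKM arrays and 0 MEF arrays each.

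Hoxa7 and Hoxa5 stood between these sets. Hoxa7 had levels of 8.67, 8.69, 8.56 and 8.74 in OKM, against 9.53, 9.50, 9.54 and 9.45 in MEF, with no overlap and a change of -0.84 (SE 0.15, adjusted p = 6.04e-05). Hoxa5 changed by -0.56 (SE 0.22, adjusted p = 0.0353), and Hoxc6, at 12.16 ± 0.06 in OKM and 12.21 ± 0.14 in MEF (SD, n = 4 each), by -0.06 with overlapping groups. Hoxd11, a gene of the forearm, was detected on 2 OKM and 2 MEF arrays and changed by -0.19 (adjusted p = 0.34).

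**Figure D2:**
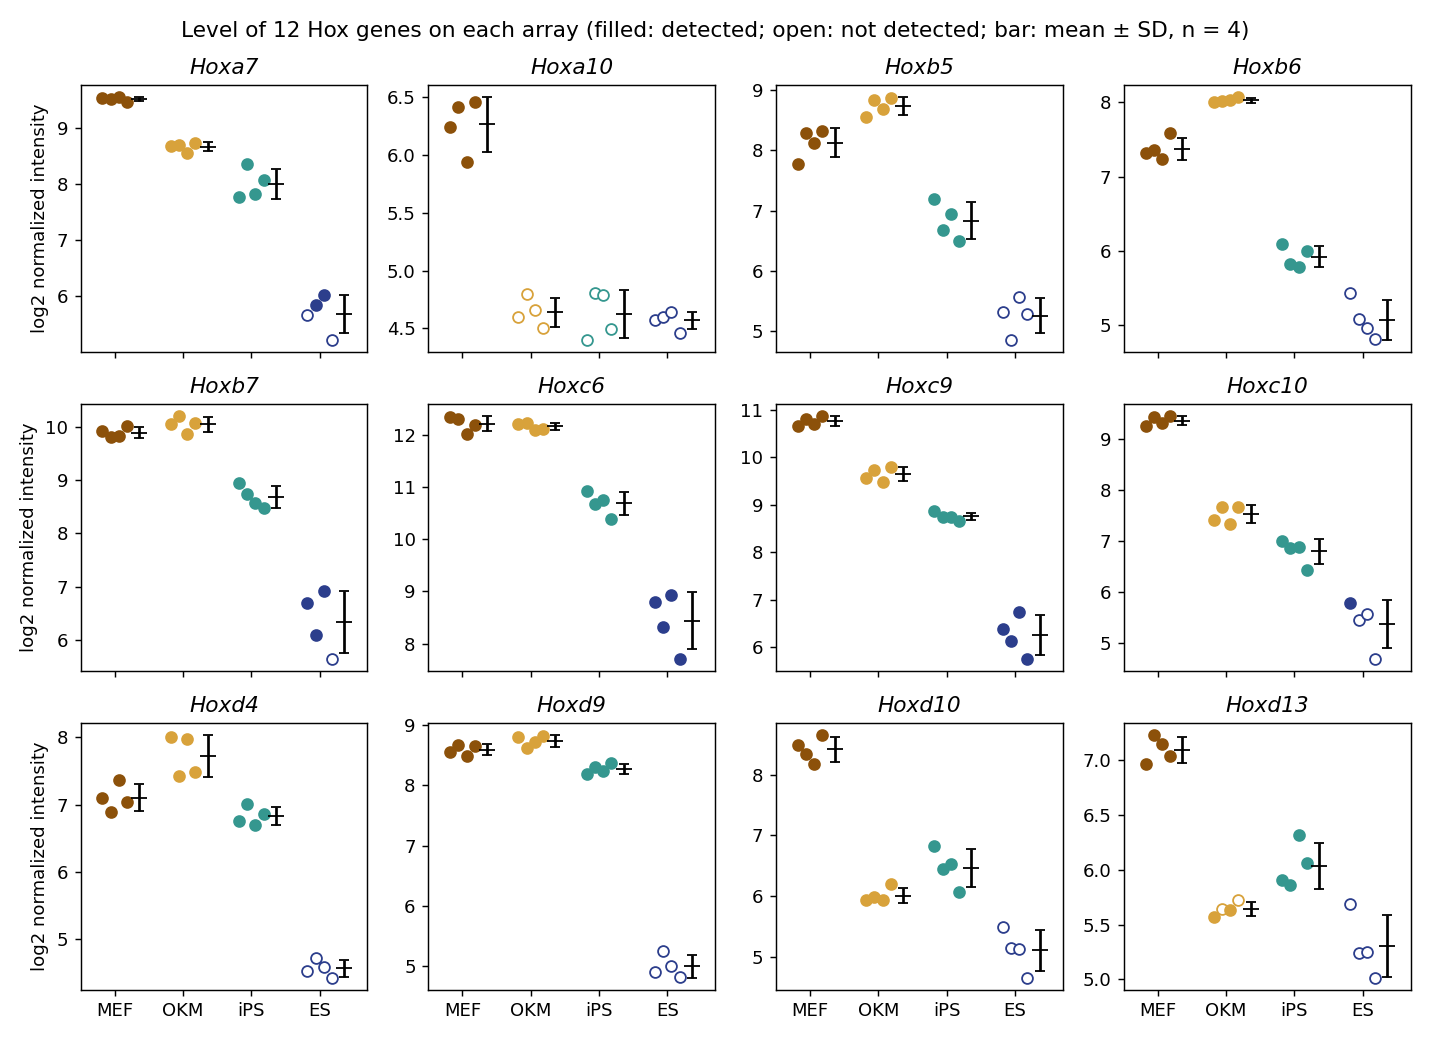
Log2 normalized intensity of 12 Hox genes on each array, by group, with 4 arrays per group (filled points, detected; open points, not detected) and the mean ± SD beside them. Hoxb5 and Hoxb6 are higher in OKM than in MEF and lower in iPS, Hoxd10 is lowest of the 3 induction stages in OKM, and Hoxd9 differs little among MEF, OKM and iPS.

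The second step, iPS against OKM, was marked by lower levels of 4 genes from the middle of the Hoxb and Hoxc clusters. Of the 25 tested Hox genes, 4 fell (Hoxb5, Hoxb6, Hoxb7 and Hoxc6) and 0 rose, and over all genes tested 5.94% fell and 7.28% rose. At an unadjusted p under 0.05 alone limma put 2 Hox genes higher, Hoxd10 and Hoxd13. The median change was -0.60 for the Hox genes and -0.02 for all genes. Culture conditions were the same in both groups, per the labels.

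Hoxb6 had levels of 6.09, 5.83, 5.78 and 5.997 in iPS, against 7.998, 8.02, 8.03 and 8.07 in OKM. Its change of -2.11 (SE 0.12, adjusted p = 1.17e-10) was the largest of the step among the tested Hox genes, and Hoxb6 is a gene of the thoracic region and the lateral mesoderm. Hoxb5, used in the neck, shoulder and gut, had levels of 7.20, 6.68, 6.94 and 6.49 in iPS, against 8.55, 8.84, 8.69 and 8.87 in OKM. It fell by 1.91 (SE 0.17, adjusted p = 3.82e-08). Hoxb7 had levels of 8.94, 8.75, 8.57 and 8.47 in iPS, against 10.05, 10.20, 9.86 and 10.06 in OKM (change -1.36, SE 0.20, adjusted p = 1.94e-05). Hoxc6, a gene of the thoracic region, had levels of 10.92, 10.67, 10.76 and 10.39 in iPS, against 12.20, 12.22, 12.10 and 12.12 in OKM. It fell by 1.47 (SE 0.19, adjusted p = 5.48e-06), and for each of the 4 genes all iPS arrays lay below all OKM arrays.

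By position, 4 of 7 tested genes at positions 5 to 8 fell, with a median change of -1.36, beside 5.94% of all genes. The genes at positions 1 to 4 had a median of -0.75 and those at 9 to 13 a median of -0.02, with 0 of 7 and 0 of 11 called (0 of 9 without Hoxa10 and Hoxd12). By cluster, 3 of 5 Hoxb genes, 1 of 5 Hoxc genes, 0 of 7 Hoxa genes and 0 of 8 Hoxd genes fell. Many changes lay just inside the 2-fold limit: -0.94 for Hoxb4 (SE 0.18, adjusted p = 0.000218), -0.89 for Hoxd4 (SE 0.14), -0.89 for Hoxc9 (SE 0.15), -0.78 for Hoxd3 (SE 0.13) and -0.75 for Hoxb2 (SE 0.12). With the limit at 1.5-fold the count of lower genes was 15, and without iPS replicate 2 Hoxb4 passed 2-fold (-1.10). Hoxd9 changed by -0.46 (SE 0.10, adjusted p = 0.000612). Hoxd10 changed by 0.46 (SE 0.17, adjusted p = 0.0285), with overlapping groups, and Hoxd13 by 0.39 (SE 0.13, adjusted p = 0.0164).

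None of the 7 tested Hoxa genes was called in this step. Hoxa7 changed by -0.66 (SE 0.15), Hoxa2 by -0.60 (SE 0.15), Hoxa5 by -0.59 (SE 0.22) and Hoxa9 by -0.59 (SE 0.15), each under 2-fold. The groups overlapped for Hoxa2 and Hoxa5 and did not for Hoxa7 and Hoxa9. In the other clusters Hoxc10 changed by -0.73 (SE 0.18) and Hoxd8 by -0.68 (SE 0.15). Hoxa4, Hoxa10, Hoxa13, Hoxc4, Hoxc13, Hoxd11 and Hoxd12 had adjusted p values from 0.291 to 0.928 and overlapping groups.

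The difference between the steps was tested gene by gene, as the change in the second step minus the change in the first. The second step was lower for 7 of the 25 genes (Hoxb2, Hoxb4, Hoxb5, Hoxb6, Hoxb7, Hoxc6 and Hoxd4) and higher for 5 (Hoxa10, Hoxc10, Hoxd10, Hoxd12 and Hoxd13), while over all genes tested 19.9% and 20.8% passed in these directions. The 5 are 20% of the tested Hox genes, about the share over all genes, and include Hoxa10 and Hoxd12, which could only differ in this direction. Without the pair 3 of 23 (13%) were higher. All 5 tested Hoxb genes were among the 7, with differences from -1.03 for Hoxb2 to -2.76 for Hoxb6 (SE 0.21, adjusted p = 2.72e-09). The largest difference of the opposite sign was that of Hoxd10, 2.85 (SE 0.29, adjusted p = 1.40e-07), followed by Hoxd13 with 1.84 (SE 0.22, adjusted p = 1.34e-06). Hoxa10 and Hoxd12 had already reached the background in OKM, so a further fall could not be seen, and Hoxd13 was near it there. The call of Hoxb2 was lost without MEF replicate 1 (-0.97), OKM replicate 3 (-0.94), OKM replicate 4 (-0.96) or iPS replicate 1 (-0.94). Without OKM replicate 3 the difference of Hoxc10 was 0.99, below the size limit. Without any 1 MEF array, Hoxa10 and Hoxd12 did not pass the detection filter. Without background correction the differences of Hoxb2, Hoxb4, Hoxd4, Hoxa10, Hoxd12 and Hoxd13 were within 2-fold, from -0.995 to 0.88. With an offset of 50 Hoxb2 (-0.96) and Hoxb4 (-0.93), and Hoxa10 and Hoxd12, lost the call too, which left 5 lower and 3 higher. On the first 8 arrays alone the calls of Hoxb2 (-0.99), Hoxc6 (-1.25) and Hoxc10 (1.03) were lost.

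**Figure D3:**
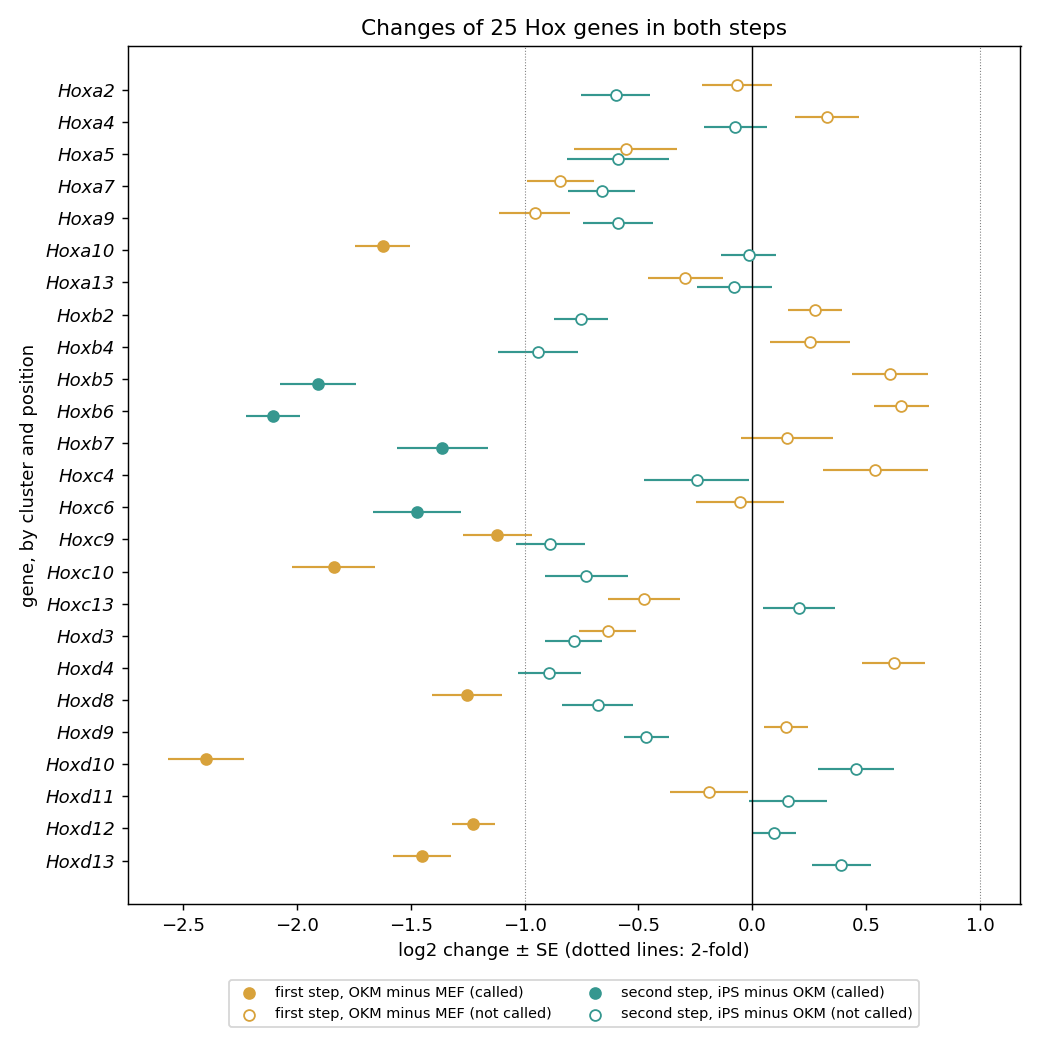
Log2 change ± SE of the 25 tested Hox genes in the first step (OKM minus MEF) and the second step (iPS minus OKM), with filled points for called changes and dotted lines at 2-fold. The 5 Hoxb genes sit right of 0 in the first step and between -0.75 and -2.11 in the second. Hoxd10 and Hoxd13 sit left of -1 in the first step and right of 0 in the second. The first-step fall of Hoxa10 and Hoxd12 was fixed by the detection filter, and their second-step values compare undetected readings.

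Measured against ES cells, iPS cells had higher Hox levels in every cluster. Of the 25 tested genes, 14 were higher in iPS and 0 lower, and over all genes tested 11.2% were higher and 7.28% lower. Tested genes that no ES array detected had passed the filter through the other groups, so they could not be called lower in iPS. At an unadjusted p under 0.05 alone limma put 0 Hox genes lower. The median change was 1.41 for the Hox genes and -0.04 for all genes. ES replicate 5 was the array with the lowest fibroblast marker signal of its group. It also had the fewest Hox genes detected, 4, and the lowest median Hox level, 4.84. Without this array 15 genes were higher. The added gene was Hoxa9 (1.07), which was likewise gained without ES replicate 4 (1.08). It was also gained without MEF replicate 2 (1.13), an array outside this comparison. Leaving out an array could change which probe stood for Hoxa9, as given below. The 14 genes were 3 of 7 Hoxa, 4 of 5 Hoxb, 3 of 5 Hoxc and 4 of 8 Hoxd genes, and at positions 5 to 8 they made up 6 of 7.

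Hoxd9, whose promoter is shown above, had levels of 8.19, 8.31, 8.23 and 8.38 in iPS, against 4.90, 5.24, 5.00 and 4.81 in ES. No ES array detected it, and it was at least 6.12-fold higher in iPS (change 3.29, SE 0.10, adjusted p = 1.49e-14). Its neighbour Hoxd8 had levels of 7.92, 8.02, 7.60 and 7.61 in iPS, against 4.90, 4.86, 5.12 and 4.496 in ES, all undetected. It was at least 4.35-fold higher in iPS (change 2.94, SE 0.15, adjusted p = 3.65e-11). Hoxb2, a hindbrain gene, had levels of 8.12, 8.46, 8.54 and 8.44 in iPS, against 6.07, 5.67, 5.75 and 5.66 in ES (change 2.61, SE 0.12, adjusted p = 4.85e-12).

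Hoxa5, which acts in lung and neck skeleton, had levels of 8.53, 8.12, 8.19 and 7.60 in iPS, against 5.72, 5.69, 6.04 and 4.78 in ES, where 2 of 4 arrays detected it. The change was 2.55 (SE 0.22, adjusted p = 3.14e-08). Hoxa7, a thoracic gene of the same cluster, had levels of 7.76, 8.35, 7.82 and 8.08 in iPS, against 5.67, 5.84, 6.03 and 5.23 in ES (change 2.31, SE 0.15, adjusted p = 4.80e-10). Hoxd4, a gene of the hindbrain and neck, had levels of 6.76, 7.01, 6.69 and 6.86 in iPS, against 4.53, 4.73, 4.59 and 4.43 in ES, all undetected, and was at least 2.24-fold higher. The genes detected on all 4 ES arrays numbered 3: Hoxc6, Hoxc9 and Hoxa13. Hoxc6 had levels of 8.79, 8.32, 8.92 and 7.71 in ES, so that iPS lay 2.25 above it (SE 0.19), and Hoxc9 lay 2.50 above (SE 0.15).

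Hoxb7 was 2.35 higher in iPS than in ES (SE 0.20, adjusted p = 2.11e-08). The other called genes were Hoxa2, Hoxb4, Hoxb5, Hoxc10 and Hoxd10. Hoxc10 changed by 1.42 (SE 0.18), with the probe that stood for it detected on 1 ES array and its second probe on 2. The other four were undetected in ES and higher in iPS by at least 1.39-fold for Hoxa2, 1.67-fold for Hoxb4, 2.24-fold for Hoxb5 and 1.75-fold for Hoxd10, so that 3 of these bounds lie under 2-fold. Without background correction the changes of those 5 genes were 0.57 to 0.71 and missed the size limit, as did all but that of Hoxb5 with an offset of 50 (0.79 to 0.93). Hoxb6, Hoxa9, Hoxd13 and Hoxd3 were not called, but no ES array detected them, so their differences are bounded only from below. Hoxb6 was at least 1.196-fold and Hoxd13 at least 1.29-fold higher in iPS. The probes that stood for Hoxa9 and Hoxd3, detected on 3 and 1 of the iPS arrays, give no usable bound. The second kept probe of Hoxa9 was detected on all 4 iPS arrays. Hoxa10 and Hoxd12 were undetected in both iPS and ES, and no difference could be measured. Hoxa13 had means of 6.20 ± 0.14 in iPS and 6.43 ± 0.39 in ES (SD, n = 4 each), and over all 4 groups its changes stayed within 0.37 in size.

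The 3 further comparisons give the wider frame and share arrays with those above. In ES against MEF 20 of the 25 genes were lower and 0 higher, and over all genes tested 24.3% were lower and 24.2% higher. The 5 that were not called were Hoxa4, Hoxa13, Hoxc4, Hoxc13 and Hoxd11, of which Hoxa13 alone was detected on all arrays. Without background correction Hoxa2, Hoxa10, Hoxd3, Hoxd12 and Hoxd13 lost the call, which left 15. In iPS against MEF 15 genes were lower and 0 higher, beside 17.5% and 19% of all genes, and without background correction 7 were lower. Leaving out Hoxa10 and Hoxd12, 18 of 23 were lower in ES and 13 of 23 in iPS. Of the 20 genes lower in ES, 13 were undetected on every ES array, this pair among them. They passed the filter through the other groups and could not be called higher in ES in any comparison. Hoxc10 had the largest change of the tested Hox genes in iPS against MEF, -2.57 (SE 0.18, adjusted p = 6.06e-10). Hoxa5 (-1.15 in the same comparison) was below the size limit without iPS replicate 4 (-0.98). In OKM against ES 16 genes were higher and 0 lower, beside 18% and 16.5% of all genes, with 13 higher without background correction. Hoxd10, at 0.90, was short of 2-fold there, but at 1.03 past it without ES replicate 1. At an unadjusted p under 0.05 alone limma put 0 Hox genes higher in the first of these comparisons, 0 higher in the second and 1 lower in the third (Hoxc13).

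How far a gene had moved was described as the share of the log2 distance between the ES mean (0%) and the MEF mean (100%) at which OKM and iPS lay. For the 20 Hox genes lower in ES than in MEF, the median share was 81.4% in OKM and 57.5% in iPS, and without Hoxa10 and Hoxd12 90.9% in OKM and 60.0% in iPS. For all 2299 genes lower in ES it was 44.5% in OKM and 30.9% in iPS, and for 13 fibroblast markers 26.6% and 29.3%. With an offset of 50 in place of 16 before the logarithm, the Hox medians were 78.7% and 52.5%. The level of 13 of the 20 Hox genes in ES was that of background, which shortens the distance by an unknown amount.

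The shares differed widely among Hox genes. Hoxd9 lay at 104% in OKM and 91.2% in iPS, Hoxd4 at 125% and 89.3%, and Hoxb2 at 109% and 84.6%. Hoxa10 and Hoxd12 were undetected in OKM, iPS and ES, so that their shares compare background readings and carry no order. Hoxb6 covered the longest way in the second step, with 128% in OKM and 36.9% in iPS. In the Hoxd cluster the shares in iPS were 60.4% for Hoxd8, 91.2% for Hoxd9 and 41.2% for Hoxd10, which lie next to one another on chromosome 2.

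**Figure D4:**
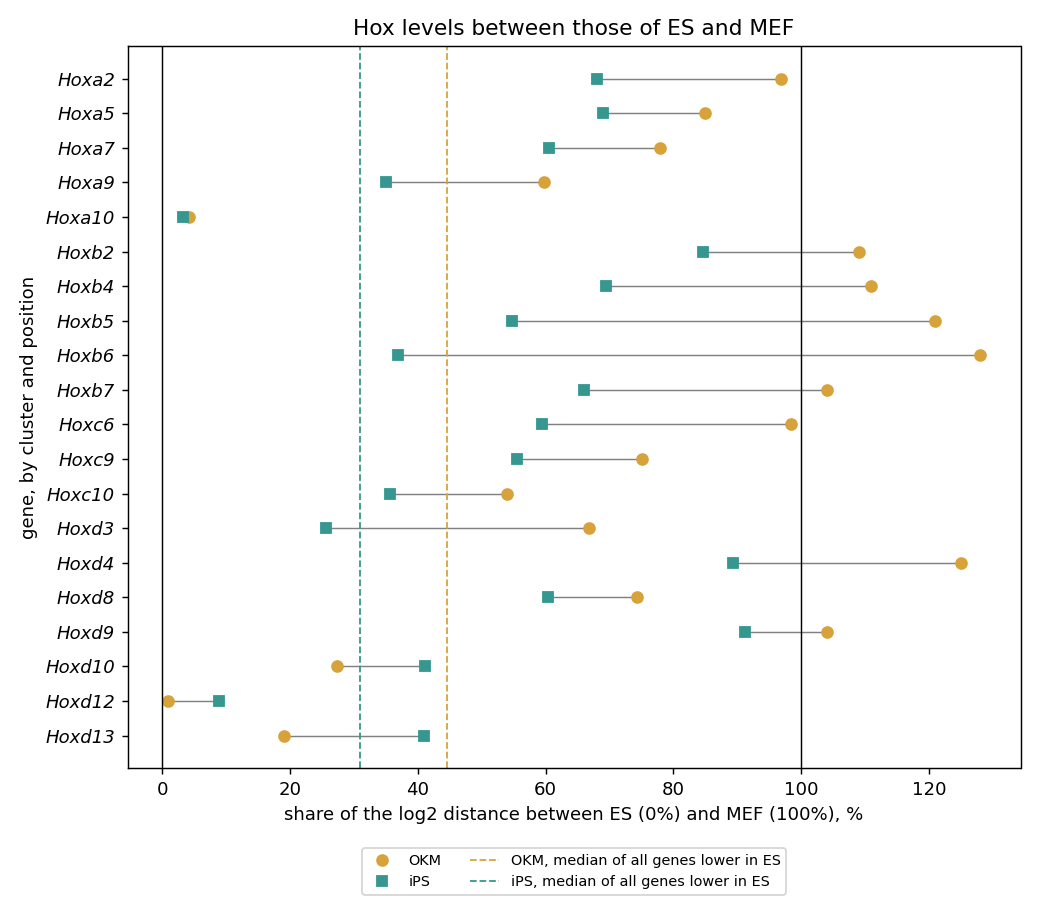
Share of the log2 distance between the ES mean (0%) and the MEF mean (100%) at which OKM (circles) and iPS (squares) lay, for the 20 Hox genes lower in ES than in MEF. Dashed lines are the medians of all 2299 genes lower in ES, 44.5% for OKM and 30.9% for iPS. Most squares lie left of their circle, apart from those of Hoxd10, Hoxd13 and the undetected Hoxd12.

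Other marker genes moved with the groups too. The summed linear intensity of the 38 Hox genes was 12736 to 13854 per MEF array, 10419 to 11208 per OKM array, 4834 to 5832 per iPS array and 1493 to 1947 per ES array. The sum of 14 fibroblast markers was 127633 to 144050 in MEF, 31962 to 37132 in OKM, 28020 to 31871 in iPS and 16170 to 17255 on 3 ES arrays, with 6556 on ES replicate 5. Of these markers 13 of 13 tested fell in OKM against MEF, beside 15.8% of all genes. In iPS against OKM 2 fell (5.94% of all genes), and 5 were higher in iPS than in ES (11.2%). Col1a2, Col3a1 and Postn were undetected in iPS and ES. The sum of 5 macrophage markers was 13536 to 14419 in MEF, 554 to 893 in OKM, 565 to 696 in iPS and 2370 to 4176 in ES. C1qb, C1qc, Adgre1 and Tyrobp were undetected in OKM and iPS, and Lyz2 was lower in iPS than in ES (change -2.61). The sum of 5 endothelial markers was 174 to 177 in MEF, 2291 to 2586 in OKM, 1018 to 1140 in iPS and 1138 to 1238 in ES. Of these Pecam1, also found in pluripotent cells, was undetected in MEF and at least 32.4-fold higher in OKM, and Tek rose by 3.03. In iPS against OKM they fell by 1.08 and 1.77, while Cdh5, Kdr and Tie1 were undetected in all 4 groups. Of the endoderm markers 2 were tested. Gata6 fell by 2.58 in OKM against MEF and rose by 1.02 in iPS against OKM. Sox7 was undetected in MEF and detected on all 4 OKM arrays, with means of 5.02 and 5.99, and was not called in that step. In iPS against OKM Sox7 was called higher too, with a mean of 7.496 in iPS. Gata4, Sox17 and Foxa2 were undetected in all 4 groups. The sum of 8 pluripotency markers was 220 to 292 in MEF, 5450 to 5987 in OKM, 86438 to 88263 in iPS and 112936 to 123630 in ES. Between iPS and OKM neither the fibroblast sums nor the Hox sums overlapped. The fibroblast sums nearly met, however, at 31871 in iPS and 31962 in OKM, whereas the Hox sums lay well apart. The median change of the 13 tested fibroblast markers in iPS against OKM was -0.02. The part of these markers in the Hox results was not tested.

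**Figure D5:**
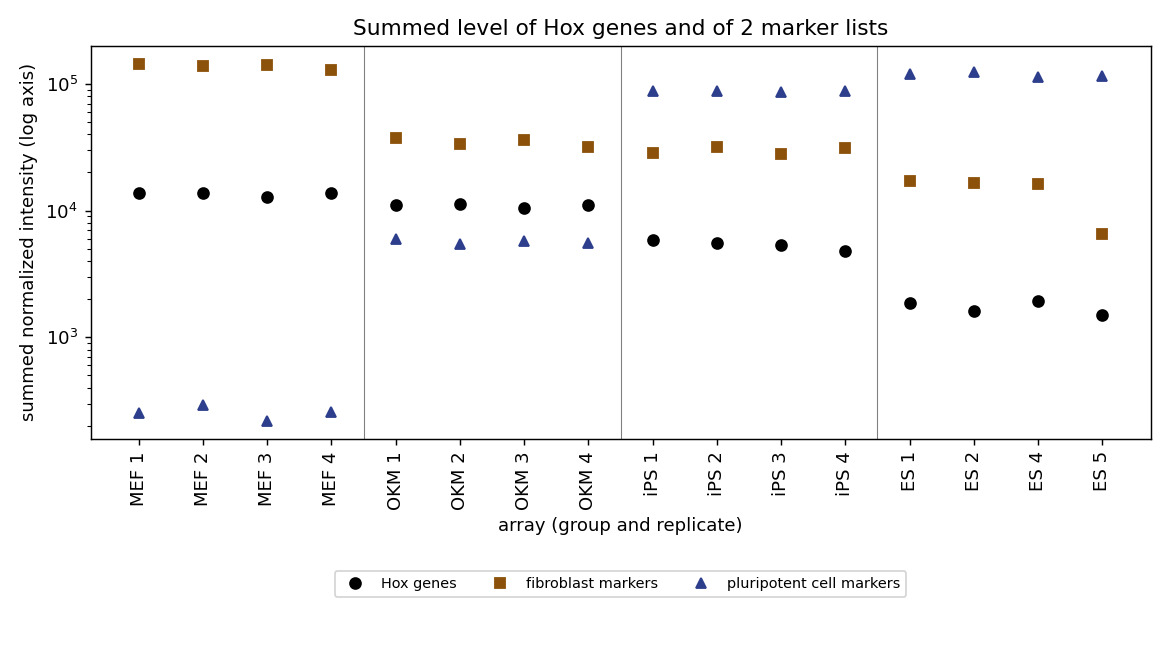
Summed normalized intensity (log axis) of the 38 Hox genes, 14 fibroblast markers and 8 pluripotency markers on each array, by group. The Hox sum is 10419 to 11208 in OKM and 4834 to 5832 in iPS, while the fibroblast sum drops mainly between MEF and OKM and is lowest on ES replicate 5.

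The TALE homeodomain proteins of the Pbx, Meis and Pknox families bind DNA together with Hox proteins. Of 7 tested, 1 rose and 2 fell in OKM against MEF, beside 16.1% and 15.8% of all genes. Pbx2 rose by 1.16 (adjusted p = 3.80e-08), Meis1 fell by 1.05 (adjusted p = 0.000125), and Pknox2 was at least 3.37-fold lower and undetected in OKM. Pknox2 passed the detection filter through the MEF arrays alone, so its fall was fixed in advance. Its other probes were undetected on every array. In the second step 1 fell (5.94% of all genes), Meis2, with means of 7.69 ± 0.29 in iPS and 9.89 ± 0.09 in OKM (SD, n = 4 each; adjusted p = 5.36e-09). Against ES, iPS had 2 higher and 0 lower, beside 11.2% and 7.28% of all genes: Meis1, with means of 9.16 ± 0.30 in iPS and 5.77 ± 0.53 in ES (adjusted p = 1.60e-10), and Meis2, with a change of 1.54 (adjusted p = 3.55e-07).

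Polycomb genes, whose products hold Hox clusters silent, moved in both directions. In OKM against MEF 5 of 14 tested rose and 1 fell, beside 16.1% and 15.8% of all genes. Cbx7 was at least 4.60-fold higher, Phc1, Cbx2 and Mtf2 rose by 1.94, 1.65 and 1.42, 1 further gene was called, and Bmi1 fell by 1.22. In iPS against OKM 3 rose (Cbx7 by 2.11, Mtf2 by 1.38 and Eed by 1.31) and 1 fell (Cbx8, change -1.15), beside 7.28% and 5.94% of all genes. Of 9 tested Trithorax and H3K27 demethylase genes, whose products counter Polycomb, 1 rose in the first step (Dpy30, by 2.40) and 1 in the second (Ash2l, by 1.05), with 0 falling. Against ES, iPS had 3 Polycomb genes higher (Bmi1, Phc2 and Cbx8, with changes of 1.73, 1.53 and 1.27) and 0 lower, and 0 Trithorax genes in either direction, beside 11.2% higher and 7.28% lower over all genes.

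Of 10 tested regulators upstream of Hox genes, 2 fell in the first step (15.8% of all genes), the hindbrain patterning gene Egr2 (change -2.57) and Crabp1 (-1.41), a binding protein of retinoic acid. In the second step, where 7.28% of all genes rose and 5.94% fell, Crabp2 fell by 1.47, the retinoic acid receptor gene Rarg rose by 1.08, and Wnt3a was at least 1.15-fold higher. Cdx2, which activates Hox genes in the caudal embryo, was at least 1.87-fold higher in iPS than in ES, with means of 6.57 in iPS and 4.78 in ES (change 1.79, adjusted p = 1.01e-09), and Egr2 was at least 1.67-fold higher. Rxra and Rara were lower in iPS than in ES, with changes of -1.81 and -1.03, so that 2 of the 10 were higher and 2 lower, beside 11.2% and 7.28% of all genes.

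Genes that lie beside the clusters were compared as a reference for the chromosome regions. Of 16 tested, 3 rose in OKM against MEF (Snx10 by 1.69, Hnrnpa1 by 1.19 and Smug1 by 1.15) and 2 fell (Copz2 and Jazf1, changes -2.40 and -1.90), close to the 16.1% and 15.8% of all genes. In iPS against OKM only Snx10 was called among the 16, with a change of -1.15, and in iPS against ES 0 were called in either direction. Smug1 is the neighbour of Hoxc4, and Hoxc4 was not called in either step. Evx1 and Evx2, the homeobox genes next to Hoxa13 and Hoxd13, were undetected in all 4 groups.

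Homeobox and T-box genes outside the clusters that mark the position of mesenchyme were also followed. Of 11 tested, 7 fell and 1 rose in OKM against MEF, beside 15.8% and 16.1% of all genes. Meox1, Meox2 and Lhx9, all among the 7, passed the detection filter through the MEF arrays alone, so their fall was fixed in advance. Meox2, Shox2 and Meox1 were undetected in OKM, with changes of at least 4.99-fold downward for Meox2, at least 7.06-fold for Shox2 and at least 2.53-fold for Meox1, and Prrx1 fell by 2.73. Barx1 rose by 2.87. In iPS against OKM 3 fell (Barx1, Msx1 and Tbx4, changes -2.31, -1.73 and -1.31) and Tbx3 rose by 1.03, beside 5.94% falling and 7.28% rising over all genes. Against ES, iPS had 5 higher, led by Msx1 with 2.55, and Tbx3 lower (change -1.89), beside 11.2% and 7.28% of all genes.

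Several Hox genes had more than 1 probe. Both kept probes of Hoxa2, Hoxa9 and Hoxc10 gave changes of the same sign in OKM against MEF, iPS against OKM and iPS against ES. The second probe of Hoxa9 changed by -1.12 in OKM against MEF (adjusted p = 2.00e-07 over 13782 probes), beyond 2-fold where the first gave -0.96, and by 1.13 against 0.83 in iPS against ES. Where an array was left out, this probe could stand for the gene, and Hoxa9 then passed 2-fold in OKM against MEF (changes of -1.07 to -1.18 without MEF replicate 1, 2 or 4, OKM replicate 1, 2 or 4, or ES replicate 4 or 5). Likewise Hoxa9 was called in iPS against ES, at 1.07 to 1.14, without MEF replicate 2 or 4 and each of those OKM and ES arrays. In iPS against OKM it changed by -0.23 (adjusted p = 0.128), where the first gave -0.59. The second probe of Hoxc10 gave 0.85 in iPS against ES, below the size limit, where the first gave 1.42. The last Hoxa9 probe, the second Hoxa10 probe and the other two Hoxa13 probes were undetected on all arrays. Probe positions along the Hox transcripts were not used here.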

How the data were processed

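Per the file headers, the deposited raw table gives for each probe and array an intensity, background included, with its detection p-value. GenomeStudio is the software named in the submitters' processing notes, with no version. A second deposited table of normalized intensity, linear and 26% negative, served as an alternative. Median raw intensities ran from 114.7 to 134.2 over the arrays, and the number of arrays limits the precision (median standard error of a log2 change, 0.13).

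Probes were named through the platform annotation, updated with a RefSeq gene table of GRCm38.p6 (23978 probes with a symbol, 1719 without). Raw values went through neqc of limma 3.58.1 (R 4.3.3), which removes background by normexp, adds an offset of 16, quantile-normalizes and takes log2. Probes detected at p under 0.01 on at least 4 of 16 arrays were kept (13782), and the probe with the highest mean stood for a gene. All 9455 genes were fitted with 1 mean per group (lmFit, contrasts.fit, eBayes), two-sided, with Benjamini-Hochberg adjustment over all of them. The difference between steps (a contrast of the same fit), the fit over all probes, the shares of the distance between ES and MEF and the counts without ES replicate 5 or without Hoxa10 and Hoxd12 were chosen after seeing the data.

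The Hox genes and all gene lists were chosen with earlier results of these data known. Named genes followed a rule: every Hox gene, full statistics for at most 10 called per comparison by size, the 4 most changed called members of each list and direction, and the promoters of at most 4 Hox genes called in iPS vs OKM or iPS vs ES. Alternatives covered background correction, normalization, filters, thresholds, blocks, array weights, probes per gene and leaving out each array. The procedure was tested on simulated data. Protein sequences were not used here.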

Additional observations from a re-analysis of the deposited data

Results flagged for a closer look

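Hoxa9 on iPS replicate 3 had a log2 normalized intensity of 5.24, and the other 3 iPS arrays lay between 5.70 and 5.76. That array did not detect the probe, and the second kept Hoxa9 probe had 5.73 there, within its range of 5.63 to 6.05 over the iPS arrays. Hoxd3 on iPS replicate 1 had 5.48, the single iPS array that detected it, with the other 3 between 4.95 and 4.98. These arrays stood out because their gap to the nearest array of the group passed the Dixon limit, among 78 pairs of a gene and a group examined, of which chance would mark about 3.9. Hoxb9, left out of the tests because fewer than 4 arrays detected it, had a mean of 6.04 in MEF with detection on 3 of 4 arrays, against means of 4.65 to 4.69 in the other groups with detection on 0 arrays.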

How the results depend on the processing

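No called Hox change reversed its direction under the alternatives tried. Without background correction 4 Hox genes were lower in OKM against MEF, 9 higher in iPS against ES, 7 lower in iPS against MEF, and the second step was lower for 4 and higher for 2; an offset of 50 gave 3 for the last. Without correction ES against MEF had 15 lower and OKM against ES 13 higher. With the adjusted p alone 12 were lower and 6 higher in OKM against MEF, 16 lower and 2 higher in iPS against OKM, and 1 lower in OKM against ES, and with a 1.5-fold limit 3 were higher in OKM against MEF and 15 lower in iPS against OKM. Leaving out 1 array at a time gave 5 to 8 lower in OKM against MEF, 4 to 5 lower in iPS against OKM, 14 to 15 higher in iPS against ES, 18 to 20 lower in ES against MEF, 13 to 15 lower in iPS against MEF, 16 to 17 higher in OKM against ES, and a second step lower for 6 to 7 and higher for 3 to 6; without any 1 MEF array Hoxa10 and Hoxd12 no longer passed the detection filter. With the replicate number in the titles as a block the counts were 7, 4, 14, 20, 15 and 16 in the order just given and 7 and 5 for the steps, all as without it; whether the numbers pair dishes is not stated, and correlations of same-numbered arrays were 0.01 to 0.55 in OKM against MEF and -0.26 to 0.07 in iPS against OKM, so the block was kept as an alternative. With table place (column order among the deposited arrays) as a block the counts did not change, and within the first and last 8 arrays 8 and 8 were lower in OKM against MEF and 5 and 5 lower in iPS against OKM. Levels near background limit Hoxa10, Hoxd12, Hoxa4, Hoxc4, Hoxc13 and Hoxd11, and Hoxd13 in OKM.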
